A study of Mus musculus with 4 samples.

Results

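The Hoxb cluster is a run of 10 Hox genes on mouse chromosome 11, and the binding of CTCF along it was described from ChIP-seq of whole testis. The 10 genes, Hoxb1, Hoxb2, Hoxb3, Hoxb4, Hoxb5, Hoxb6, Hoxb7, Hoxb8, Hoxb9 and Hoxb13, were taken by name from 21523 protein-coding genes of the autosomes and X. They span 96194316 to 96368254 in the mm10 build. A CTCF peak was counted in the cluster when its summit, the base of highest signal, lay in that span, which held for 16 of 51871 peaks. Flanks of 500 kb on either side were counted apart and held 36 peaks on the side of lower coordinates (left) and 35 on the side of higher coordinates (right).

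The samples were 2 CTCF immunoprecipitations and 2 inputs from testes of F1 mice of a B6 by CAST cross, with no age or treatment in the labels. The tissue was frozen and the labels name no sort, so germ cells and somatic cells contributed together, and a peak list carries no marker genes with which the labelled tissue could be checked. The values are those of 1 merged peak list in which the alleles of B6 and CAST are not told apart. No value per sample was analysed, so no replicate error stands behind any value, the read depth is unknown, and intervals cover counting error only.

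Hox genes encode homeodomain transcription factors that give cells their position along the body axis, and genes of a cluster are switched on in the order in which they lie. The mammalian Hoxb genes are all transcribed in the same direction, from Hoxb13 at the posterior end to Hoxb1 at the anterior end, which here runs from lower to higher coordinates. CTCF is a zinc-finger protein that, with cohesin, holds chromatin loops and marks boundaries. In embryonic Hox clusters it is known for separating active from silent genes. The cluster also encodes a pair of microRNAs, which lower the output of target transcripts through a seed at bases 2 to 8. Mir196a-1 lies between Hoxb13 and Hoxb9, and its product is known for cleaving Hoxb8 transcripts. Mir10a lies between Hoxb5 and Hoxb4.

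The sequences below place the binding data on the DNA and come from RefSeq on GRCm38.p6, which shares its chromosome coordinates with mm10. The promoter table held a window of 300 bases, from 250 before to 50 after the start site, for 3 of the 10 Hoxb genes, Hoxb8, Hoxb4 and Hoxb1. Those 3 are shown with that of Ttll6, the coding gene next to the cluster on the left and a case of a promoter with both a peak and a CTCF-like motif. Capitals mark matches to a CTCF core, searched on both strands as the letters CC, any 3 bases, AG, any 2 bases and GGC. For the microRNAs, capitals mark the seed.

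Hoxb8 promoter, chr11:96281655-96281954, plus strand: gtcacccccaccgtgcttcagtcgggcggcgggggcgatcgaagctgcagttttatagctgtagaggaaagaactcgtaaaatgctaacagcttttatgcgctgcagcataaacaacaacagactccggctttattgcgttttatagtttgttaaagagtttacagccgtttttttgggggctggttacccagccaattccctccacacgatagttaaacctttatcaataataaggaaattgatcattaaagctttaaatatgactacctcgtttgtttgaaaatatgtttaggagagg
Hoxb4 promoter, chr11:96318017-96318316, plus strand: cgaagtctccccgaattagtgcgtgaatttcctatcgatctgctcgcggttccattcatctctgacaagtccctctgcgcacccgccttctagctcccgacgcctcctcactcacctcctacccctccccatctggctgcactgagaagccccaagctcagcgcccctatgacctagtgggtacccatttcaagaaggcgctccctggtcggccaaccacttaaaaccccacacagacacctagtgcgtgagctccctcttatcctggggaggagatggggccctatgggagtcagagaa
Hoxb1 promoter, chr11:96365508-96365807, plus strand: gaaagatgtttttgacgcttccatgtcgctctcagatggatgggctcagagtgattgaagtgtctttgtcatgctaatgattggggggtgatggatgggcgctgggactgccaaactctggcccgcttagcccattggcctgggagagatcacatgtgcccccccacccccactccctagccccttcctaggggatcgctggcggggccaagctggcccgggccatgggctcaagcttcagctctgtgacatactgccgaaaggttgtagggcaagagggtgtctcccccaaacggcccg
Ttll6 promoter, chr11:96133536-96133835, plus strand: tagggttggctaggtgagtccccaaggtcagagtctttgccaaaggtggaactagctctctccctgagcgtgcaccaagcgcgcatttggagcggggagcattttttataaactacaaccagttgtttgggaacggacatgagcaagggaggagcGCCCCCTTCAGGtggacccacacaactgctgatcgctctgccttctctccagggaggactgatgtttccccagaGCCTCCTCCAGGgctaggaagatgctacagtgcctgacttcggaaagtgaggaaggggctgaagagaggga
miR-196a-5p of Mir196a-1, chr11:96265187-96265208, plus strand: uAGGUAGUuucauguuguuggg
miR-10a-5p of Mir10a, chr11:96317186-96317208, plus strand: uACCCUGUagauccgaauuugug

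CTCF peaks of the cluster ran from among the weakest of the whole list to among the strongest. Fold enrichment, the authors' ratio of signal at the summit to background, was from 2.80 to 15.4 with a median of 6.25, against a median of 6.82 over all 51871 peaks. Of the 16 peaks, 2 had a fold of 10 or more, 7 had a fold between 5 and 10, and 7 had a lower fold. The −log10 q, which rises with the number of reads as well as with the fold, was from 1.98 to 72.7. It exceeded 40 in 8 peaks and was below 10 in 6. Of all peaks, 60.7% had a −log10 q below 40.7 and 23.2% had one below 10.01. The median over all peaks was 29.5, and 8 of the cluster's 16 peaks were above it. The strong peaks lay towards Hoxb13 and in the middle of the cluster. Weak peaks lay in those parts too, among them the peak of lowest fold, 2.80, inside Hoxb8. Most peaks of the anterior genes were weaker than the strong peaks, but a peak inside Hoxb3 had a fold of 7.49.

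**Figure D1:**
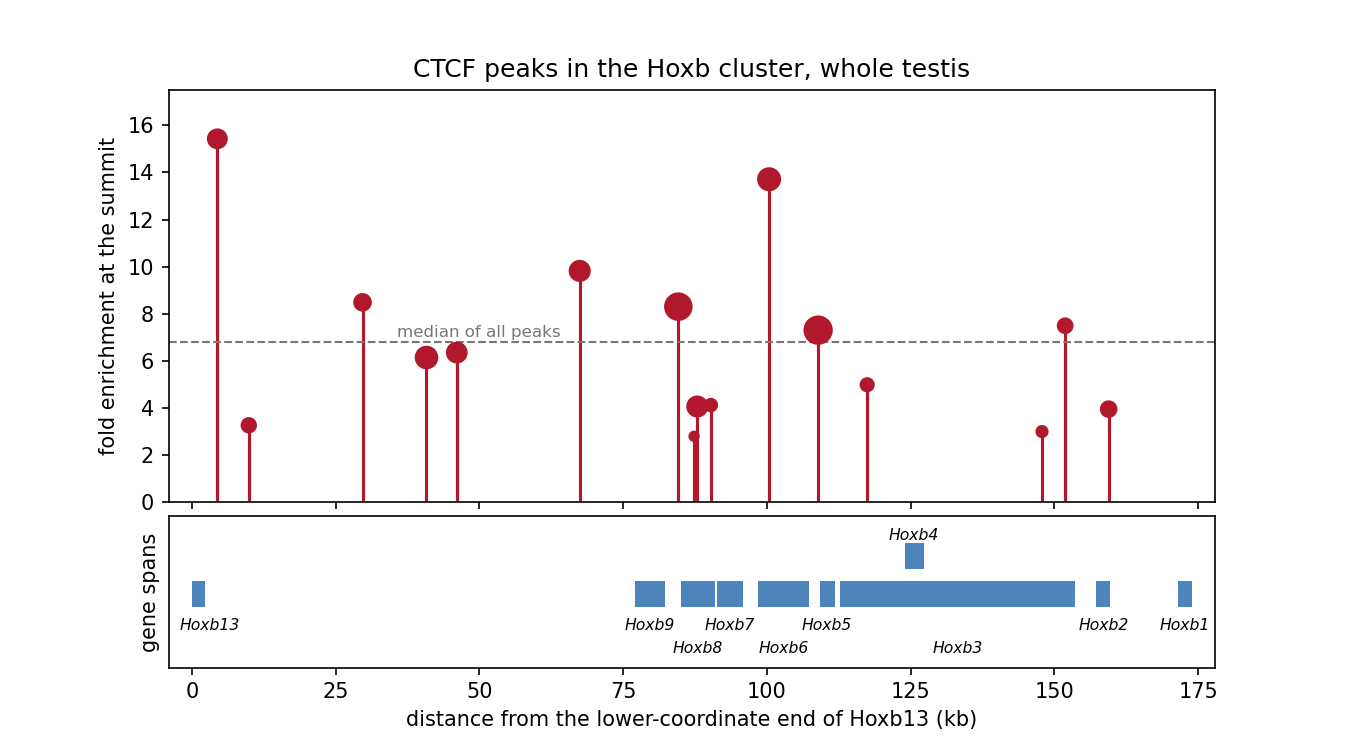
Fold enrichment at the 16 CTCF summits of the Hoxb cluster (y axis) against the distance from the lower-coordinate end of Hoxb13 in kb (x axis), with the area of each dot proportional to the peak's width and the annotated spans of the 10 Hoxb genes as boxes below. The tallest lines, with folds of 15.4 and 13.7, stand next to Hoxb13 and inside Hoxb6, and no line stands near Hoxb4 or Hoxb1; the dashed line is the median fold of all peaks, 6.82.

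The strongest peak of the cluster stood beside Hoxb13, a posterior gene best known for its part in the prostate. It spanned 96198297 to 96199272, with a summit at 96198763, 2.15 kb beyond the upper end of the gene. The fold there was 15.4, the highest of the cluster, at a −log10 q of 66.3. Of all peaks, 97.9% had a lower fold, and 80 peaks of chromosome 11 had a higher one. The summit was 100 bp from the lower end of the long noncoding RNA gene Gm30134. That gene is on the minus strand with start sites up to 96203626, so this is the end away from its start.

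The 74.7 kb between Hoxb13 and Hoxb9 held 6 of the 16 summits, the strongest included. After it came a weak peak at 96204233 (fold 3.27, −log10 q 3.08) inside the noncoding gene Gm11538. The next summits, at 96224014, 96235137 and 96240404, had folds of 8.49, 6.14 and 6.35, and the nearest end of a Hoxb gene was 27.4, 36.2 and 30.9 kb away in the same order. The last, at 96261781 inside the noncoding gene Gm53, reached a fold of 9.82, at a −log10 q of 66.8. It lay 3.38 kb from Mir196a-1, on the Hoxb13 side, and 9.55 kb from Hoxb9. In this stretch 5 of the 6 peaks had a fold of at least 5, and their median fold was 7.42.

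From Hoxb9 to Hoxb1, 10 summits lay in 96.9 kb, with a median fold of 4.56, and 4 of them reached a fold of 5. The Hoxb9 span itself held none. A broad peak of 1932 bp, from 96277990 to 96279921, began in the 2.81 kb between Hoxb9 and Hoxb8 and ran into the Hoxb8 span, and its summit at 96278932 had a fold of 8.30, at a −log10 q of 67.4. Of all peaks, 98.8% were narrower. The annotated Hoxb8 span begins 469 bp after that summit.

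Hoxb8, which in mice is used to mark a blood-derived lineage, held 3 summits inside its span, as did the far longer Hoxb3, and all 3 of Hoxb8 were weak. Summits at 96281668, 96282224 and 96284591 had folds of 2.80, 4.06 and 4.12 and −log10 q values of 1.98, 6.14 and 6.92. The promoter printed for Hoxb8 starts its transcript at 96281905, which is 2504 bp inside the annotated span. Measured from that start site, the first of the weak summits lay 237 bp before it, at base 14 of the window shown, and the next 319 bp after it. Around that start site the highest fold within 1 kb was therefore 4.06, against 8.30 when the end of the span was used. The Hoxb7 span held no summit.

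The second strongest peak lay inside Hoxb6, a gene expressed in lateral mesoderm, and the antisense gene Hoxb5os. Its summit at 96294718 had a fold of 13.7 and the highest −log10 q of the cluster, 72.7. It lay 1.904 kb from the lower end of Hoxb6. Between Hoxb6 and Hoxb5, which are 1.94 kb apart, stood the widest peak of the cluster, 2054 bp from 96302212 to 96304265. Its fold was 7.31 and its −log10 q 61.3, and its summit at 96303237 lay 275 bp before the lower end of Hoxb5, a gene used as a marker of long-term blood stem cells.

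The anterior genes had few and mostly weak summits. A peak at 96311770, between Hoxb5 and Hoxb4 and inside the long annotated span of Hoxb3, had a fold of 4.99, and lay 5.40 kb from Mir10a. No summit followed for 30.4 kb, a gap that held Mir10a and all of Hoxb4, a gene known for expanding blood stem cells. At the far end of Hoxb3 came summits at 96342173 and 96346197, with folds of 3.0 and 7.49. The last summit of the cluster, at 96353764 inside Hoxb2, had a fold of 3.95 and lay 256 bp from the upper end of the gene. Hoxb2 and Hoxb1 both act in the hindbrain, where Hoxb1 specifies a segment that gives rise to the facial nerve. The 11.7 kb between them and Hoxb1 itself held no summit, and from Hoxb2 the next summit, in the right flank, was 54.1 kb away.

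Neighbouring summits in the cluster were closer together at the median than over the autosomes, but not closer than in the right flank or the other Hox clusters. Among the 15 gaps between neighbouring summits inside the cluster, the median was 8.52 kb, the shortest 0.556 kb and the longest 30.4 kb. The median was 11.6 kb in the left flank, 8.09 kb in the right flank, 3.42 kb in Hoxa, 6.34 kb in Hoxc, 1.85 kb in Hoxd, 13.4 kb over chromosome 11 and 17.8 kb over the autosomes. The gap of 54.1 kb around Hoxb1 was longer than 79.0% of the gaps on the autosomes and than 86.7% of those on chromosome 11, and the gap around Hoxb4 was longer than 65.0% and 73.5%. They are the longest gaps that touch the cluster, and a longer gap is likelier to hold a given gene. Their ranks among all gaps therefore run high.

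The exact intervals of the shares of Hoxb genes with a summit within 1 kb or 2.5 kb of an end held the share of all protein-coding genes. Within 1 kb of an annotated end a summit was found for 3 of 10 Hoxb genes, Hoxb8, Hoxb5 and Hoxb2, or 30% (exact Clopper-Pearson 95% interval 6.67 to 65.2), against 39.1% of all protein-coding genes. The same 3 genes had a summit within 500 bp, against 31.4% of all protein-coding genes. Within 2.5 kb the count was 8 of 10, or 80% (exact interval 44.4 to 97.5), against 51.1%. The distances of the added genes to their nearest summit were 1.01 kb for Hoxb7, 1.67 kb for Hoxb6, 1.73 kb for Hoxb3, 2.15 kb for Hoxb13 and 2.34 kb for Hoxb9. Hoxb4, at 6.497 kb, and Hoxb1, at 11.98 kb, were the exceptions. Neighbouring genes shared summits, since the 8 genes had 6 nearest summits between them, so the genes are not independent counts.

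The CTCF core was found in none of the 3 Hoxb promoters shown, and 1 of them, that of Hoxb8, held a summit. Among all 32851 promoter windows 8.61% held the core. The share was 23.4% of the 4278 windows with a summit and 6.40% of those without. Of the 30 windows in the cluster and its flanks, 11 held a summit and 3 held the core. Those 3, of Phospho1, Atp5g1 and Ttll6, each held a summit too. The Ttll6 window, shown because it has both, held 2 matches on the strand opposite to the gene. Its summit, at base 160, fell within the match at bases 156 to 167. That summit, at 96133695, had a fold of 7.27. No match says only that these letters are not in the window, and the peaks of the cluster that lie outside promoters were not searched, since no genome sequence was used here.

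Density in the cluster was higher than over the chromosome and, by a smaller margin, than in its flanks. The cluster held 9.20 summits per 100 kb, against 7.20 in the left flank, 7 in the right flank, 3.18 over chromosome 11 and 2.09 over the autosomes. The ratio to both flanks together was 1.30, with an exact 95% binomial interval from 0.703 to 2.25, which includes equal density. That interval takes neighbouring summits as independent, though some stand close together. With peaks of fold at least 5 the ratio was 1.01. Of 14774 consecutive windows of the cluster's length on the autosomes and X, 1.46% held 16 or more summits, and the median window held 2. On chromosome 11, 26 of 683 such windows did. The flanks were denser than the chromosome as a whole too.

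**Figure D2:**
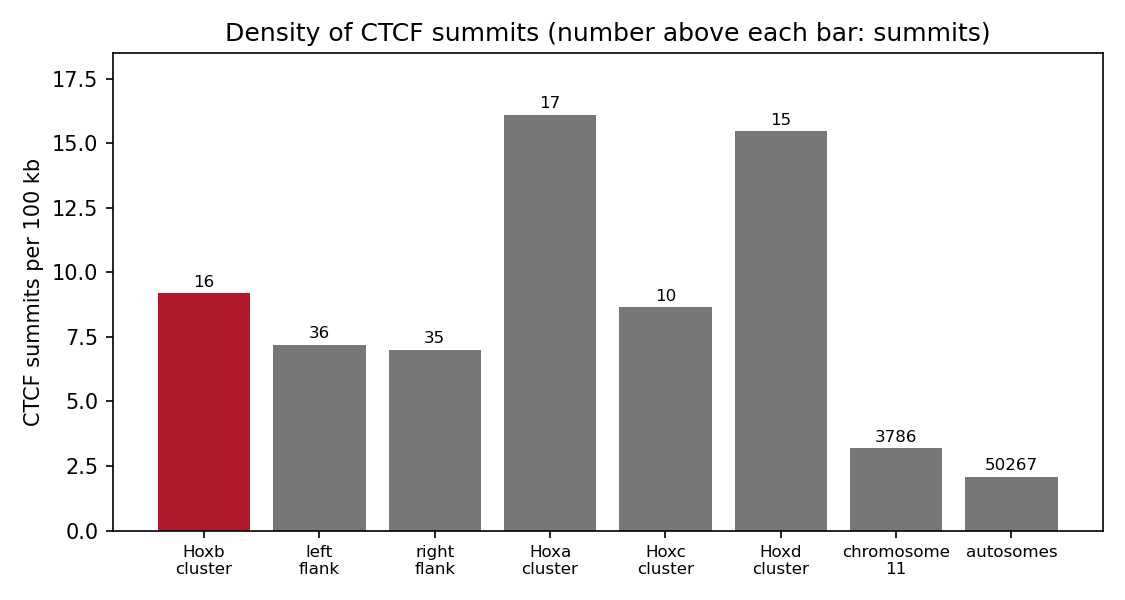
CTCF summits per 100 kb (y axis) in the Hoxb cluster (red) and, in grey, its flanks of 500 kb, the other Hox clusters, chromosome 11 and the autosomes (x axis), with the number of summits above each bar. The Hoxb bar, at 9.20, stands above those of its flanks, 7.20 and 7, and below those of Hoxa and Hoxd, 16.1 and 15.5.

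The peaks of the cluster were wider at the median than those of its flanks and of the whole list, as were those of the Hoxa and Hoxd clusters. Their median width was 866 bp, against 475 bp in the flanks, 529 bp over all peaks, 804 bp in Hoxa, 519 bp in Hoxc and 908 bp in Hoxd. A width of at least 1000 bp was found for 7 of 16 peaks in the cluster (43.8%), against 14 of 71 in the flanks (19.7%) and 16.6% of all peaks. Peaks covered 8.56% of the cluster's length, against 4.54% of the flanks. The median fold was 6.25 in the cluster and 6.34 in the flanks, a ratio of 0.985 that sets 16 peaks against 71 without replicates. The median −log10 q was 34.0 in the cluster and 26.4 in the flanks together, but 22.0 in the left flank and 34.8 in the right flank. Peaks with a fold of 5 or more made up 56.3% of the cluster's peaks, against 71.8% of those in the flanks. Across the 16 peaks, width and −log10 q rose together (Spearman 0.797, n = 16), as they did over all peaks (0.843). All come from the same list.

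**Figure D3:**
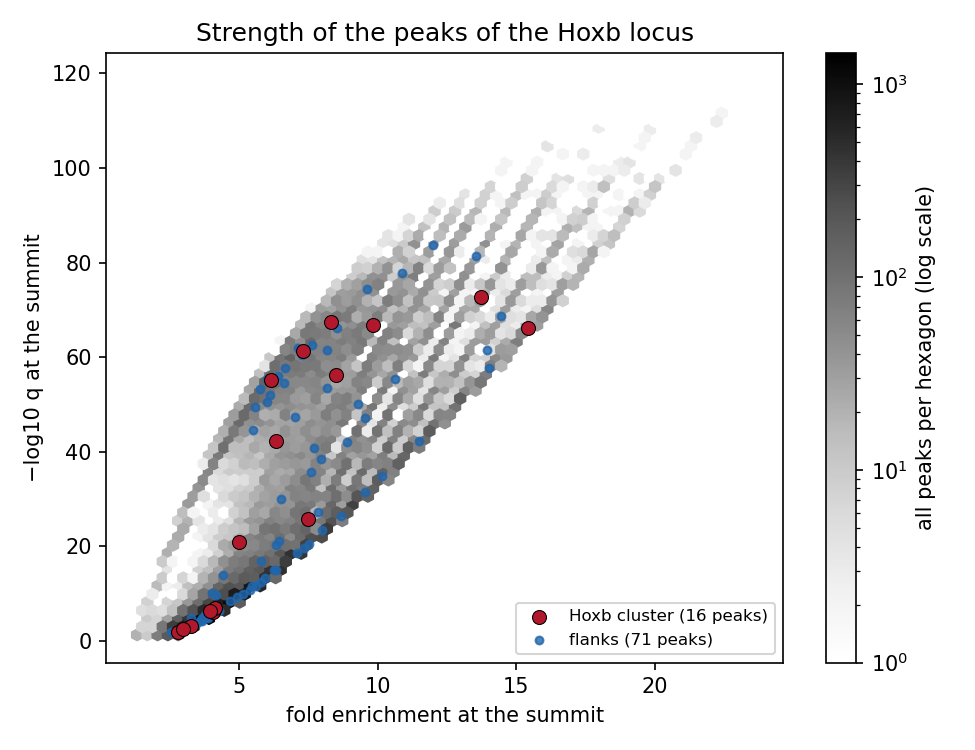
The −log10 q at the summit (y axis) against fold enrichment at the summit (x axis) for the 16 peaks of the Hoxb cluster (red), the 71 peaks of the flanks (blue) and all 51871 peaks (grey hexagons, darker for more peaks). Of the cluster's peaks, 6 have −log10 q values below 10 and 8 have values above 40, with 2 peaks between, at 20.9 and 25.8.

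A fold of 10 or more was found for 2 of 16 peaks in the cluster (12.5%), against 1 of 36 in the left flank (2.78%), 8 of 35 in the right flank (22.9%) and 19.6% of all peaks. These shares were not tested against each other. The highest of the left flank, with a fold of 13.95 at 95853926, lay 8.19 kb from Gngt2, which encodes a subunit of a G protein. The next had folds of 9.55 each, 6.15 kb from Zfp652, a zinc-finger gene, and inside Igf2bp1, which encodes an RNA-binding protein. Towards the cluster the last peaks of the left flank were spread over Calcoco2, an autophagy receptor gene, and Ttll6, whose product adds glutamate chains to tubulin. The final summit before Hoxb13, at 96176915, was weak, with a fold of 2.87.

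The right flank began with 4 peaks between Hoxb1 and Skap1. The first, at 96407886, lay 39.6 kb from Hoxb1, the nearest coding gene, with a fold of 14.02. The other 3, up to 96438935, had folds of 7.63, 10.6 and 6.01, and then no summit followed for 95.8 kb up to 96534737 inside Skap1, a T cell adaptor gene, where the fold was 13.5. The highest fold of the right flank, 14.4, was at 96760184, 562 bp beyond the upper end of Skap1. The long Skap1 span held 14 summits. All 5 coding genes of the right flank had a summit within 1 kb of an end, against 3 of 12 in the left flank, Phospho1, Ube2z and Atp5g1, and 39.1% of all coding genes. The difference between the flanks was not tested. The RefSeq start sites of Ube2z, Atp5g1 and Ttll6 lay 19, 167 and 91 bp from a summit. That of Ttll6, at 96133786, is inside its annotated span, which begins at 96124457 and has its nearest end summit at 1.95 kb.

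**Figure D4:**
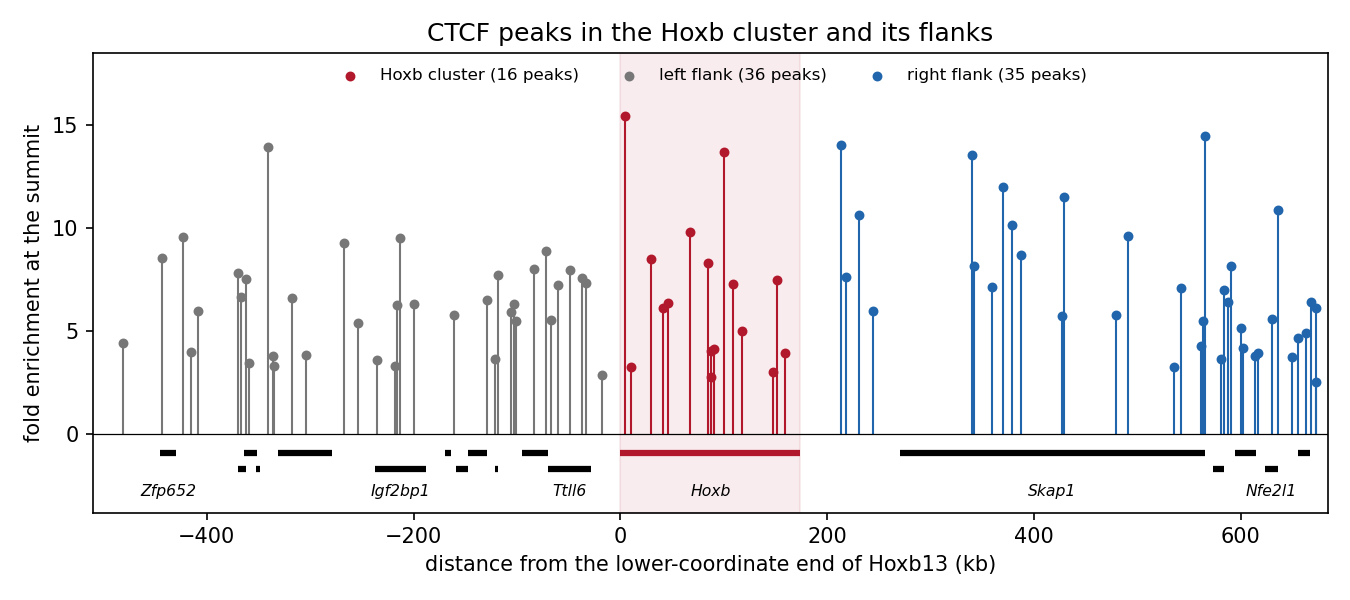
Fold enrichment at each CTCF summit (y axis) against the distance from the lower-coordinate end of Hoxb13 in kb (x axis) in the Hoxb cluster (red, shaded), its left flank (grey) and its right flank (blue), with the annotated spans of coding genes as bars below 0. On the left of the cluster a gap of 21.8 kb holds Hoxb13, and on its right a gap of 54.1 kb precedes a peak with a fold of 14.02.

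Set beside its paralogous clusters, Hoxb was the longest, with a summit density near that of Hoxc and below those of Hoxa and Hoxd. It spans 174 kb, against 106 kb for Hoxa, 116 kb for Hoxc and 96.9 kb for Hoxd. Its 9.20 summits per 100 kb stood near the 8.64 of Hoxc and below the 16.1 of Hoxa and the 15.5 of Hoxd. The median fold was 6.25 in Hoxb, 4.76 in Hoxa, 3.70 in Hoxc and 3.60 in Hoxd, and the highest fold 15.4, 10.1, 7.85 and 10.4 in the same order. The part of Hoxb from Hoxb9 to Hoxb1, 96.9 kb long, had a median fold of 4.56, below that of Hoxa. Its density was 10.3 summits per 100 kb and its highest fold 13.7. The 4 clusters are described once each, and no test of the differences was made.

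Placements of summits were alike between some paralogous genes and unlike between others, and the groups given were picked after their values were seen. A summit stood between the genes of groups 5 and 6 in each of the 3 clusters that have both, which lay 275 bp from Hoxb5, 70 bp from Hoxa5 and 293 bp from Hoxc5, with folds of 7.31, 8.15 and 7.85. Hoxb1, at 11.98 kb, and Hoxd1, at 14.7 kb, were both far from any summit. In group 2, Hoxb2 lay 0.256 kb from a summit and Hoxa2 27.1 kb. In group 9, Hoxb9 lay at 2.34 kb, Hoxa9 at 0.24 kb, Hoxd9 at 0.02 kb and Hoxc9 at 2.62 kb. Group 4 was mixed, with Hoxb4 at 6.497 kb, Hoxd4 at 6.07 kb and Hoxc4 at 4.38 kb but Hoxa4 at 0.273 kb. Group 13 had its nearest summit at 2.15 kb from Hoxb13, 1.72 kb from Hoxa13, 1.59 kb from Hoxd13 and 7.62 kb from Hoxc13, with folds of 15.4, 10.1, 8.16 and 3.67. At the level of counts, 3 of 10 Hoxb genes had a summit within 1 kb of an end, 6 of 11 Hoxa genes, 3 of 9 Hoxc genes and 5 of 9 Hoxd genes, beside the 39.1% of all coding genes.

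**Figure D5:**
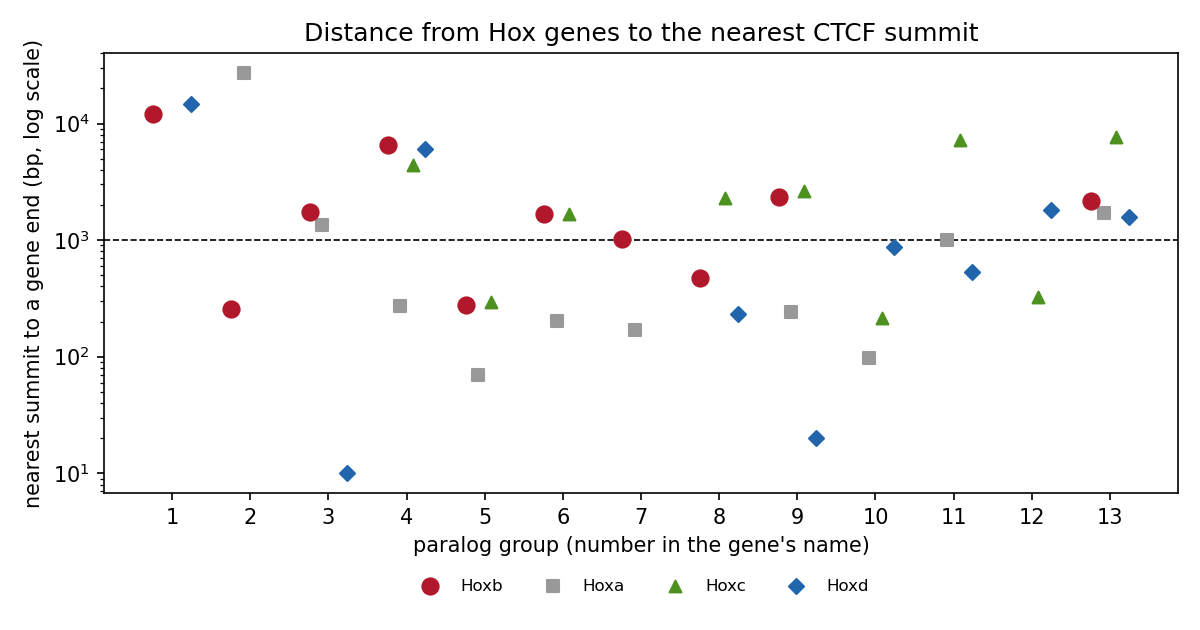
Distance in bp from Hox genes to the nearest CTCF summit, measured from the closer annotated end (y axis, log scale), against the paralog group in the gene's name (x axis), for Hoxb (red circles), Hoxa (grey squares), Hoxc (green triangles) and Hoxd (blue diamonds). Hoxb1 and Hoxd1 lie near the top, at 11.98 and 14.7 kb, the group 5 genes lie between 70 and 293 bp, and the dashed line marks 1 kb.

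Genes that act with or upstream of the Hoxb proteins were counted in the same way. Of 9 genes for TALE homeodomain proteins, which bind DNA together with HOX proteins, 6 had a summit within 1 kb of an end, beside 39.1% of all coding genes. The highest folds were 12.96 at Pbx2, 10.2 at Pknox2 and 5.62 at Pknox1. Of 11 genes that regulate Hox transcription or the retinoic acid signal acting on it, 2 had such a summit. These were Rara, encoding a retinoic acid receptor, with a fold of 7.96, and Aldh1a2, encoding an enzyme of retinoic acid synthesis, with 5.02.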

How the data were processed

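CTCF ChIP-seq of whole testis was deposited as 1 merged peak list for 2 immunoprecipitations and 2 inputs. Per the submitters' processing notes, the tools were BWA 0.7.12 and MACS2 2.2.7 and the build mm10, without a stated role for either tool. The peak names carry the words merged and bio2, so whether both immunoprecipitations entered was not settled. Values deposited by the authors and used here were the fold enrichment (a ratio) and the −log10 q of each peak. The deposited score and −log10 p were not used. Summits were the peak start plus the deposited offset, in 1-based coordinates. Gene spans, promoters and microRNAs came from RefSeq tables of GRCm38.p6. The span table gives no strand, so ends are called lower and upper by coordinate. Genes starting in the first 3 Mb of a chromosome were left out. Lengths for the density of whole chromosomes ran from 3 Mb to the end of the last gene or peak. Computation was in Python 3.11.15 with pandas 2.3.3, and gene-end counts and the motif search were tested on simulated data. Printed intervals are exact Clopper-Pearson (for the density ratio, converted from the cluster's share of the peaks); no p-value was computed. The depth per sample is unknown.

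The members, gene lists and named genes were chosen with earlier results of these data known. Named were all Hoxb genes, the noncoding genes inside the cluster, in each flank the coding gene next to the cluster and those nearest to the 3 peaks of highest fold, and of the 2 lists of other genes the 3 of highest gene-end fold. Outside that rule, the other flank genes and the paralogs named by distance were picked after their values were seen. Of the list regulating Hox or retinoic acid only 2 genes had such a fold. The distance of 1 paralog is not reported here. Alternatives were other flank lengths, stricter peak sets, other windows, peak overlap in place of summits, and a stricter motif.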

Additional observations from a re-analysis of the deposited data

How the results depend on the processing

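Of 23 alternatives to the main values, 6 of them added after the data were seen, 19 stayed within the interval of the main value (for the ratio of medians, from the order statistics of the cluster's peaks) or, for counts, within 1.5 times of it, and none turned a difference round beyond its interval. Among the 19, the stricter motif could only give 0 matches, since the main search gave 0, so it tests nothing. The count of 16 peaks in the cluster became 9 with a fold of at least 5. The count of 3 Hoxb genes with a summit within 1 kb of an end became 8 with a window of 2.5 kb and 5 when any overlap of a peak with the window of 1 kb was counted. The 8 genes of both lists of other genes with such a summit became 13 with a window of 2.5 kb. Over all protein-coding genes the share also rose with the window, from 39.1% within 1 kb to 51.1% within 2.5 kb. It was not computed for peak overlap. The density ratio of cluster to flanks, 1.30, ranged from 1.01 with a fold of at least 5 to 1.53 with flanks of 250 kb. The ratio of median fold, 0.985, ranged from 0.855 with flanks of 250 kb to 0.986 with the left flank alone, and was 1.29 with −log10 q in place of fold. That 1.29 is to both flanks together, and the right flank's median −log10 q, 34.8, was above the cluster's 34.0. The cause of these changes was not tested. No paired analysis was possible because only a merged list was analysed, in which samples are not separated. Runs without either replicate were not made for that reason. Read depth was not known, so a site too weak to be called may lie in the gaps around Hoxb4 and Hoxb1.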

Other observations

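Among the 9 noncoding genes that lie in the Hoxb cluster, 3 had a CTCF summit within 1 kb of an end. These were Gm30134, Gm11538 with a fold of 3.27 and Hoxb3os, named as antisense to Hoxb3, with up to 3.95. At Gm30134 the fold was 15.4 by the end away from its start sites and 3.27 by the end near them. The share of all noncoding genes with such a summit was not computed, and that of all protein-coding genes was 39.1%. Hoxb5os, which runs past Hoxb6 and Hoxb5, held 2 summits inside its span, with folds of 13.7 and 7.31, and none within 1 kb of an end. For Gm51876, Gm53 and the pseudogene Gm11539 the closest summit was 3.06, 2.70 and 8.19 kb from an end.

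The summit at Hoxb2 was the most off-centre of the cluster, at 87.0% of its peak's width, where the other 15 lay between 20.1% and 59.0%.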
